A study of Mus musculus with 12 samples.

Results

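The matrix-degrading and shedding metalloproteases of 3T3 cells, a mouse fibroblast cell line, were examined with their inhibitors. These are the matrix metalloproteinases (MMPs), the ADAMs, the ADAMTS proteases, the ADAMTS-like proteins and the tissue inhibitors of metalloproteinases (TIMPs). They were chosen by symbol, a rule that uses no measured value, although earlier results of these data were known when the families were picked. A table row qualified if its symbol was Mmp, Adam, Adamts or Adamtsl followed by a number (for Mmp and Adam also with a or b), or Timp1 to Timp4. 84 of 32544 rows qualified. Of these, 47 reached a mean of 1 CPM in at least 1 group and are described here. CPM is the count scaled to a fixed library total after TMM normalization, which sets libraries of different depth and composition on a common scale. By family these were 15 of 23 MMP rows, 3 of 4 TIMP rows, 12 of 33 ADAM rows, 13 of 19 ADAMTS rows and 4 of 5 ADAMTSL rows. The members just inside that limit were Adamts15, at 1.02 CPM in its highest group, and Adamtsl1 at 1.48 CPM. Just outside it were Mmp24 at 0.591 CPM and Adam22 at 0.534 CPM. Of the other 37 rows, 13 held no count in any of the 12 libraries.

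Bulk poly(A) RNA was sequenced from 4 groups of 3 libraries, all of 3T3 cells. Untreated cells received no vesicles. The other groups were cultured for 24 h with extracellular vesicles, membrane-bound particles that cells release, from MDA-MB-468, a human triple-negative breast cancer line: from its control derivative (shCon), from cells with CRIPTO knocked down (shCr), or from cells that overexpress CRIPTO (CrOE). CRIPTO is a cell-surface co-receptor of Nodal and other TGF-beta family ligands. The genetic change was in the vesicle donors, and the labels name no allele, vector or clone for them. No label says that the 3 libraries of a group came from separate cultures, so p-values measure only the spread between these libraries, which may be technical. The columns named only after CRIPTO were assigned to CrOE by elimination, and every statement on that group rests on that step.

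MMPs are secreted or membrane-anchored zinc proteases that together cut most proteins of the extracellular matrix. They are made as inactive precursors, and TIMPs block the active enzymes. ADAMs are membrane proteases that release the outer parts of growth factors, cytokines and receptors from the cell surface, and some ADAMs have no protease activity. ADAMTS enzymes are secreted and trim procollagens and proteoglycans, whereas ADAMTS-like proteins carry the same binding modules without the protease domain. Fibroblasts are a main source of these enzymes in connective tissue and in the stroma of tumours.

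Library totals ran from 25959912 counts in an untreated library to 37773847 in a shCr library. The limit that a count of 0 allows is 3 counts, worth 0.114 CPM in the smallest library and 0.0795 CPM in the largest. The CrOE libraries stood apart from the rest: the first principal component of all genes, 73.7% of the variance, placed them between 109 and 113 and the other 9 between -41.8 and -29.7. Mitochondrial transcripts took 0.495% to 1.70% of the counts, with untreated replicate 1 (0.495%), shCr replicate 1 (0.622%) and CrOE replicate 2 (0.693%) the lowest and each below its replicates. In shCr replicate 1, 5 members (Adam33, Adam8, Adam1a, Adamts10 and Adamtsl5) were over 1.5-fold below both replicates. CrOE replicate 3 had 4 members that far below and 1 that far above both replicates (Adam33, Adam5, Adamts3, Adamtsl1 and Mmp8), all with CrOE means under 1 CPM. Untreated replicate 2 had 1 below and 2 above (Adam33, Adamts16 and Adamtsl1). Fibroblast markers (11 genes) summed to 20137 to 21693 CPM in untreated cells, 24839 to 25169 after shCon vesicles, 16054 to 17932 after shCr vesicles and 8513 to 8891 after CrOE vesicles. In the CrOE libraries 10 of the 11 stayed at 1 CPM or more, and Lum was at 0.009697 ± 0.0168 CPM. Epithelial markers (11 genes) summed to 2.47 to 4.19 CPM over all libraries, and Epcam was at 0 in each. Within that sum Cldn4 had a mean of 0 CPM in untreated cells and 1.15 after CrOE vesicles, and Krt18 0.346 and 0.849. Krt7 (1.49 and 0.572) and Krt19 (0.942 and 0.621) were lower in the CrOE group. Krt8, Krt14, Cldn3 and Esrp1 had higher means there and Cdh1 and Krt5 lower ones, all at most 0.149 CPM in these groups. The 8 macrophage and leukocyte markers summed to 129 to 141 CPM in untreated cells, 123 to 134 after shCon vesicles, 173 to 246 after shCr vesicles and 32.7 to 38.3 after CrOE vesicles, with Adgre1 and Tyrobp at 0 in untreated cells. The higher shCr sum came from Lyz2, with means of 46.9 (untreated) and 146 CPM (shCr). Cd14 had a lower mean in the shCr group (48.1 against 78.3 CPM). So did Csf1r (2.20 against 2.43), Cd68 (5.56 against 5.64), Itgam (0.208 against 0.332) and Ptprc (0.0711 against 0.112). Adgre1 had a mean of 0.0224 CPM in the shCr group, and Tyrobp stayed at 0. The 6 endothelial markers summed to at most 2.62 CPM in any library. The part of these differences in the results below was not tested. Bulk RNA cannot tell fewer cells of a type from less RNA per cell. Tdgf1, the mouse gene for CRIPTO, held 0 to 3 counts in any library, which checks nothing about the human donor cells.

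After vesicles from the control donor line, some members stood higher and others lower than in untreated cells. In the CrOE libraries most members were lower. All 84 rows together summed to 6242 ± 68.0 CPM (SD, n = 3) in untreated cells, 7497 ± 23.0 after shCon vesicles, 7442 ± 157 after shCr vesicles and 1995 ± 62.3 after CrOE vesicles. The MMP rows summed to 2181 ± 53.7 CPM in untreated cells, 3874 ± 12.3 after shCon vesicles, 3544 ± 121 after shCr vesicles and 758 ± 30.4 after CrOE vesicles. The TIMP rows did not follow across the control and knockdown vesicles: their sum was 1434 ± 21.6 CPM in untreated cells, 1329 ± 8.76 after shCon vesicles, 1451 ± 18.9 after shCr vesicles and 191 ± 7.10 after CrOE vesicles.

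Of the 84 rows, 54 held enough counts to be tested, and a call is an adjusted p under 0.05 in edgeR's quasi-likelihood test over all genes. After shCon vesicles, 17 members were higher and 14 lower than in untreated cells, where 38.1% of all genes tested were called (18% higher, 20.2% lower). After shCr vesicles, 15 were higher and 15 lower, with 37.3% of all genes called (18.4% higher, 18.8% lower). After CrOE vesicles, 6 were higher and 43 lower, with 73.7% of all genes called, split almost evenly (36.7% higher, 37% lower). At least 2-fold calls numbered 14 for shCon, 11 for shCr and 38 for CrOE vesicles, beside 6.04%, 6.28% and 29.7% of all genes. The median log2 fold change (log2FC) of the tested members against untreated cells was -0.017 for shCon, 0.063 for shCr and -1.374 for CrOE vesicles, beside 0.007, 0.02 and 0.008 over all genes. A member could pass the filter on low counts through 1 high group, so these counts and medians describe the members tested and are not support for a change of the family. The 3 contrasts share the untreated libraries. Against those shared controls, 13 members were lower after all 3 kinds of vesicle, a pattern of 9.08% of all genes tested. Another 12 were called, as lower, after CrOE vesicles alone (14.5% of all genes), and 9 were higher after shCon and shCr vesicles and lower after CrOE vesicles (4.66% of all genes).

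Mmp2 (gelatinase A, which cuts denatured collagen and basement membrane collagen) was above its untreated level after shCon and shCr vesicles and far below it after CrOE vesicles. It stood at 959.8, 954 and 907 CPM in the 3 untreated libraries and 2219, 2266 and 2260.1 after shCon vesicles. Mmp2 was at 1895, 2040.3 and 1932 CPM after shCr vesicles and 172, 189.7 and 188 after CrOE vesicles. The 4 groups did not overlap: both the control and the knockdown vesicles were followed by levels 2.39-fold and 2.08-fold those of untreated cells, and CrOE vesicles by levels 5.13-fold lower. The log2FCs were 1.26 ± 0.0524 (SE, adjusted p = 5.6e-09), 1.06 ± 0.0522 (adjusted p = 1.3e-08) and -2.36 ± 0.0544 (adjusted p = 9.4e-13).

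Mmp14 encodes MT1-MMP, the membrane-type enzyme that activates pro-MMP2 at the cell surface in a complex with TIMP2. Its level was 838, 848 and 792 CPM in the untreated group and 1159.99, 1154 and 1169 after shCon vesicles. Mmp14 was at 1107, 1238 and 1194 CPM after shCr vesicles and 320.3, 332 and 316 after CrOE vesicles. It rose by less than Mmp2 after shCon vesicles (log2FC 0.49 ± 0.0518, adjusted p = 1.1e-05) and shCr vesicles (log2FC 0.51 ± 0.0518, adjusted p = 6.7e-06) and fell after CrOE vesicles (log2FC -1.36 ± 0.0527, adjusted p = 9.0e-11). The shCon and shCr libraries overlapped. Mmp15, the membrane-type enzyme MT2-MMP, ran from 3.33, 3.85 and 3.57 CPM in untreated cells to 5.58, 5.54 and 5.37 after shCon vesicles, 8.18, 8.55 and 8.27 after shCr vesicles and 1.46, 1.77 and 2.13 after CrOE vesicles. It was the member with the largest rise from shCon to shCr vesicles among the MMPs (log2FC 0.60 ± 0.11, adjusted p = 0.00487). Against untreated cells Mmp15 was higher after shCon (log2FC 0.62 ± 0.12, adjusted p = 0.00129) and shCr vesicles (log2FC 1.22 ± 0.12, adjusted p = 3.9e-06) and lower after CrOE vesicles (log2FC -0.99 ± 0.13, adjusted p = 1.4e-05). Mmp16, the membrane-type enzyme MT3-MMP, stood at 22.9 ± 2.98 CPM in the untreated group, 18.6 ± 1.16 and 19.7 ± 3.17 after shCon and shCr vesicles and 7.13 ± 0.805 after CrOE vesicles. It fell after CrOE vesicles alone among the 3 contrasts (log2FC -1.68, adjusted p = 1.0e-07). Its shCon contrast (adjusted p = 0.0777) passed the threshold without untreated replicate 2 (0.0259) or shCr replicate 1 (0.0219) or with those 2 groups alone in the fit (0.0325), and its shCr contrast (0.193) without shCr replicate 1 (0.01498).

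**Figure D1:**
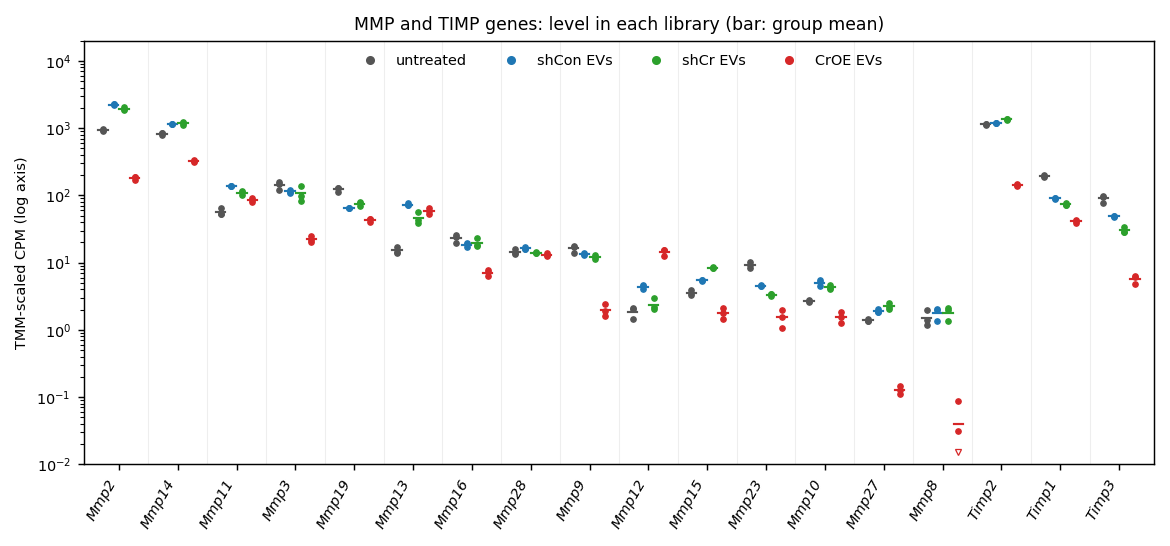
TMM-scaled CPM (vertical log10 axis) of the MMP and TIMP members in each of the 12 libraries, by group; points are libraries and the open triangle marks the 1 library with 0 counts, Mmp8 in CrOE replicate 3. Mmp2, Mmp14 and Timp2 lie at the top, and Mmp11, Mmp12 and Mmp13 are the MMPs whose CrOE libraries lie above the untreated ones.

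Mmp9 (gelatinase B) stood at 16.2 ± 2.02 CPM in the untreated group, 13.5 ± 0.497 after shCon vesicles, 12.04 ± 0.947 after shCr vesicles and 1.97 ± 0.406 after CrOE vesicles. It fell after shCr vesicles (log2FC -0.43, adjusted p = 0.0102) and CrOE vesicles (-3.03, adjusted p = 4.1e-10). The shCon contrast of Mmp9 (log2FC -0.27, adjusted p = 0.0891) passed without untreated replicate 2 (0.0247) or with those 2 groups alone in the fit (0.0473). Mmp11 (stromelysin 3, which unlike most secreted MMPs is activated by furin inside the cell) was higher after every kind of vesicle. Its level was 53.6, 65.9 and 52.6 CPM in the untreated group and 140.2, 139.7 and 137 after shCon vesicles. Mmp11 was at 102, 114 and 113 CPM after shCr vesicles and 80.02, 91.1 and 84.5 after CrOE vesicles. No vesicle library overlapped an untreated one, with rises of 1.28 ± 0.08497 (adjusted p = 2.0e-07), 0.94 ± 0.0846 (adjusted p = 2.6e-06) and 0.57 ± 0.0844 (adjusted p = 4.3e-05) in log2. Exons of Mmp11 overlap a gene on the opposite strand, as do those of 12 other members, and whether counting used strand is not given in the sources used here.

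Mmp19, a secreted MMP of connective tissue and basement membranes, moved the other way. It stood at 129, 111 and 129.8 CPM in the untreated group and 65.9, 64.7 and 65.8 after shCon vesicles. Mmp19 was at 79.2, 77.8 and 68.96 CPM after shCr vesicles and 44.1, 45.3 and 40.7 after CrOE vesicles, lower in every vesicle library than in every untreated one (log2FC -0.91 ± 0.0722, adjusted p = 8.4e-07, log2FC -0.71 ± 0.0717, adjusted p = 6.6e-06 and log2FC -1.51 ± 0.0734, adjusted p = 8.1e-10, in that order). Mmp23, a small MMP anchored by its N-terminal end and without a hemopexin domain, had the same calls, with 8.31, 10.3 and 9.197 CPM in untreated cells against 4.47, 4.45 and 4.58, 3.14, 3.46 and 3.37 and 1.55, 1.08 and 1.99 after shCon, shCr and CrOE vesicles. Its log2FCs were -1.04 ± 0.15, -1.48 ± 0.15 and -2.58 ± 0.17 (adjusted p = 1.5e-04, 8.6e-06 and 1.3e-08). Mmp28 (epilysin) was the MMP whose group means lay closest together, from 13.1 ± 0.614 CPM after CrOE vesicles to 16.3 ± 0.715 after shCon vesicles. It had no call against untreated cells (adjusted p = 0.0939, 0.646 and 0.0868 for shCon, shCr and CrOE vesicles). The shCon contrast of Mmp28 passed without untreated replicate 2 (0.0181) and its CrOE contrast without untreated replicate 3 (0.0434) or with at least 10 counts asked of every library (0.0403).

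Of the MMP genes, 10 stand next to each other on chromosome 9 in the RefSeq annotation, with no other protein-coding gene between them, in the order Mmp13, Mmp12, Mmp1b, Mmp3, Mmp1a, Mmp10, Mmp8, Mmp27, Mmp20 and Mmp7. Collagenases, stromelysins and the macrophage elastase lie in this cluster, and 6 of its genes reached 1 CPM. Neighbours went in opposite directions after CrOE vesicles: the 2 genes at one end of the order, Mmp13 and Mmp12, were higher than in untreated cells, and the other 4 reported genes were lower. The start regions of Mmp13, Mmp12, Mmp3 and Mmp10, genes from both sides of this split, are printed with their matches to the AP-1 element. That motif has long been known from collagenase and stromelysin promoters. The stretches are the last 130 bases before the annotated start in RefSeq (GRCm38.p6), on the plus strand, with capitals for an AP-1 match (TGAGTCA or TGACTCA, which are each other's reverse complement, so that either strand is covered). They lie at chr9:7272384-7272513 (Mmp13), chr9:7344267-7344396 (Mmp12), chr9:7445692-7445821 (Mmp3) and chr9:7502212-7502341 (Mmp10).
Mmp13: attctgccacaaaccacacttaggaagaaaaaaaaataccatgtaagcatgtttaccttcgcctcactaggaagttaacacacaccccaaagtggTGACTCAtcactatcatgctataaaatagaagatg
Mmp12: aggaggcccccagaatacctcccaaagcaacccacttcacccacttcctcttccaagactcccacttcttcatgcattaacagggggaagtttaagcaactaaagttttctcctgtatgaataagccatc
Mmp3: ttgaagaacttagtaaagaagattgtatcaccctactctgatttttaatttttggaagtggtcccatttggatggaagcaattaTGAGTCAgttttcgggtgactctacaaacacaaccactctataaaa
Mmp10: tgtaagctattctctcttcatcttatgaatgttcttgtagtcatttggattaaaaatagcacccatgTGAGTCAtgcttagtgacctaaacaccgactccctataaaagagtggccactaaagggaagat

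The match began 35 bases before the start in Mmp13, 46 in Mmp3 and 63 in Mmp10, and the printed Mmp12 stretch, from the first of its listed starts, held none. A second listed Mmp12 start had a match 44 bases before it. In Mmp8 and Mmp27, the other reported cluster genes and both lower after CrOE vesicles, the 250 bases before the start held no match. In the 250 bases before the start, 5 of the 30 reported members with a listed window held a match (16.7%), the fifth being Adam19 at 131 bases, against 5.16% of 27025 genes. A match is a run of letters and shows no binding. Members with a match went both ways after CrOE vesicles: Mmp12 and Mmp13 were higher, and Mmp3, Mmp10 and Adam19 were lower. Mmp12 is included through its second listed start alone, and Adam19 through 1 of its listed windows. Whether the motif has a part in these levels was not tested.

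Mmp13 (collagenase 3, the main interstitial collagenase of rodents) showed the largest rise of the 47 members after shCon vesicles. Its level was 16.8, 14.1 and 14.6 CPM in the untreated group and 76.8, 71.2 and 70.8 after shCon vesicles. Mmp13 was at 56.3, 42.5 and 38.4 CPM after shCr vesicles and 58.1, 64.6 and 53.5 after CrOE vesicles. Every vesicle library was at least 38.4 CPM and every untreated library at most 16.8 CPM (log2FC 2.26 ± 0.13, adjusted p = 6.4e-08 for shCon, log2FC 1.59 ± 0.13, adjusted p = 1.1e-06 for shCr, log2FC 1.95 ± 0.13, adjusted p = 1.9e-08 for CrOE vesicles). The knockdown vesicles were followed by a lower level than the control vesicles (log2FC -0.68 ± 0.12, adjusted p = 0.00417). CrOE and shCon groups differed by a log2 fold change of -0.31 (adjusted p = 0.0324), and that call was lost without any one of shCon replicates 1 (0.0933) and 2 (0.0558) and CrOE replicates 1 (0.0814) and 3 (0.123).

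Mmp12 (macrophage elastase) showed the largest rise of the 47 members after CrOE vesicles. It was at 2.12, 2.06 and 1.43 CPM in the untreated group and 4.44, 4.05 and 4.72 after shCon vesicles. Mmp12 was at 2.01, 2.18 and 2.94 CPM after shCr vesicles and 15.2, 15.7 and 12.6 after CrOE vesicles. The CrOE libraries lay above all the others, 7.71-fold the untreated level (log2FC 2.95 ± 0.17, adjusted p = 3.8e-09). The shCon libraries also lay above the untreated ones (log2FC 1.23 ± 0.18, adjusted p = 1.7e-04). The shCr and untreated libraries overlapped (log2FC 0.36, adjusted p = 0.162). The shCr vesicles were followed by less Mmp12 than shCon vesicles (log2FC -0.87 ± 0.17, adjusted p = 0.00687). The sum of the macrophage and leukocyte markers was lower, at 32.7 to 38.3 CPM in the CrOE libraries against 129 to 141 CPM in untreated ones. That sum was mainly Cd14 (78.3 CPM in untreated cells, 30.5 after CrOE vesicles) and Lyz2 (46.9 and 1.25 CPM). Cd68 and Csf1r were also lower, whereas Ptprc stood at 0.112 and 0.110 CPM and Adgre1 at 0 in both groups. Which cells the Mmp12 RNA came from was not tested. Exons of Mmp12 overlap those of Mmp1b on the opposite strand, a gene with at most 15 counts in any library.

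Mmp3 (stromelysin 1, which cuts proteoglycans, laminin and other MMP precursors) was at 158, 121 and 150.1 CPM in the untreated group and 122, 111 and 110.2 after shCon vesicles. Mmp3 was at 140.3, 98.9 and 83.6 CPM after shCr vesicles and 20.5, 24.5 and 21.9 after CrOE vesicles. The CrOE libraries lay far below the other 9 (CrOE against untreated log2FC -2.68 ± 0.17, adjusted p = 1.0e-08), which overlapped. Neither the shCon contrast (adjusted p = 0.123) nor the shCr contrast (adjusted p = 0.0534) passed with all libraries. The shCon contrast of Mmp3 passed without shCr replicate 1 (0.0128) and with those 2 groups alone in the fit (0.0184). Its shCr contrast passed in 7 alternatives: without shCr replicate 1 (2.8e-04) or untreated replicate 2 (0.0251), with DESeq2 (0.0258), with the replicate block (0.0314) and under 3 other settings of scaling or filtering (0.0219 to 0.04998). Mmp10 (stromelysin 2) differed from Mmp3 in its shCon and shCr calls. It was at 2.71 ± 0.0973 CPM in untreated cells. It rose to 5.05 ± 0.522 after shCon vesicles (log2FC 0.89 ± 0.14, adjusted p = 2.7e-04) and 4.29 ± 0.348 after shCr vesicles (log2FC 0.66 ± 0.14, adjusted p = 0.00233), and stood at 1.55 ± 0.282 CPM after CrOE vesicles (log2FC -0.80 ± 0.15, adjusted p = 3.6e-04). Mmp10 shares 11.9% of its 31-base stretches with Mmp3, so part of the counts of the weaker Mmp10 could be assigned to the wrong gene. Of the stretches of Mmp3, 14.6% are shared with other annotated genes, among them Mmp10, Gm15242 and Gm15244.

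The last pair of reported genes in the cluster was nearly absent after CrOE vesicles. Mmp8 (the collagenase first found in neutrophils) stood at 1.39, 1.98 and 1.18 CPM in the untreated group, 2.04, 1.99 and 1.37 after shCon vesicles and 2.08, 1.95 and 1.35 after shCr vesicles. The CrOE libraries held 4 counts of Mmp8 in all against 122 in the untreated ones. This is a ratio of 38.3 with an exact 95% interval of 14.6 to 143 that covers counting error only. Its edgeR adjusted p for CrOE against untreated was 1.1e-06. Mmp27 stood at 1.39 ± 0.0741 CPM in untreated cells, 1.91 ± 0.102 after shCon vesicles and 2.24 ± 0.237 after shCr vesicles. The CrOE libraries held 13 counts of Mmp27 against 112 in the untreated ones, a ratio of 10.8 (6.08 to 21.0, adjusted p = 1.9e-08). The rise of Mmp27 after shCon vesicles (log2FC 0.46, adjusted p = 0.0348) was lost without any one of the untreated libraries (0.0569 to 0.10002) or the shCon libraries (0.0596 to 0.110) and with DESeq2 (0.126), no low-count filter (0.102) or the replicate block (0.0544).

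All 3 reported TIMPs fell after CrOE vesicles, where 37% of all genes tested were called lower, and they parted after the other vesicles. Timp2, the inhibitor that also takes part in pro-MMP2 activation, was at 1164, 1163 and 1120.2 CPM in the untreated group and 1198, 1182 and 1184 after shCon vesicles. Timp2 was at 1356, 1354 and 1331 CPM after shCr vesicles and 139, 150.3 and 143 after CrOE vesicles. It was 7.97-fold lower after CrOE vesicles than in untreated cells (log2FC -2.995 ± 0.0482, adjusted p = 7.1e-14), slightly higher after shCr vesicles (log2FC 0.23 ± 0.0446, adjusted p = 0.00133), and not called after shCon vesicles (log2FC 0.04798, adjusted p = 0.429). Timp1, a secreted inhibitor that is induced in many injured tissues, was at 194, 200.03 and 191 CPM in the untreated group and 92.7, 92.9 and 89.3 after shCon vesicles. Timp1 was at 78.3, 71.2 and 71.9 CPM after shCr vesicles and 41.5, 42.3 and 38.9 after CrOE vesicles. Its 4 groups did not overlap and ran downward in that order (log2FC -1.09 ± 0.0529, adjusted p = 1.7e-08, log2FC -1.401 ± 0.0533, adjusted p = 2.0e-09 and log2FC -2.25 ± 0.0551, adjusted p = 1.5e-12 against untreated cells).

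Timp3, which binds to the matrix and blocks ADAM17 and ADAMTS enzymes as well as MMPs, was at 95.05, 76.1 and 99.4 CPM in the untreated group and 47.7, 50.1 and 49.2 after shCon vesicles. Timp3 was at 33.5, 28.8 and 28.3 CPM after shCr vesicles and 4.88, 6.05 and 6.32 after CrOE vesicles. Again the groups did not overlap and ran downward (log2FC -0.88 ± 0.10, adjusted p = 2.8e-05, log2FC -1.58 ± 0.11, adjusted p = 1.9e-07 and log2FC -3.97 ± 0.12, adjusted p = 1.1e-11). Exons of Timp3 overlap those of Syn3 on the opposite strand. Timp4 stayed under 1 CPM in each group.

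Levels were compared between genes only after division by the length of the principal GENCODE transcript, as CPM per kilobase. On that scale Mmp14 (318 CPM per kb) and Mmp2 (305.5 CPM per kb, 38.3% of the MMP total) were nearly level in untreated cells. Mmp2 led after shCon vesicles (730.4 CPM per kb, 53.2% of the MMP total) and shCr vesicles (635 CPM per kb, 50.4%). After CrOE vesicles the order was Mmp14 (124 CPM per kb, 44% of the MMP total), Mmp2 (59.5 CPM per kb), Mmp11 (37.3 CPM per kb) and Mmp13 (22.0 CPM per kb). Among the TIMPs, Timp2 made up 56.4% of the level per kilobase in untreated cells, 73.7% after shCon vesicles and 80.1% after shCr vesicles, but Timp1 (53.6%) was above Timp2 (45%) after CrOE vesicles.

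The summed MMP level per kilobase was 1.45 ± 0.0223 times the summed TIMP level in untreated cells (SD, n = 3), 3.16 ± 0.0321 times after shCon vesicles, 2.78 ± 0.110 times after shCr vesicles and 3.27 ± 0.0518 times after CrOE vesicles. These ratios were formed after the levels had been seen and are given without a test. All vesicle libraries had a ratio of at least 2.67, and all untreated libraries one of at most 1.475. After shCon and shCr vesicles the MMP sum per kilobase was higher than in untreated cells, whereas after CrOE vesicles both sums were lower. The ratio of Mmp14 to Timp2 per kilobase was 1.03 ± 0.0159 in untreated cells, 1.40 ± 0.0136 after shCon vesicles, 1.25 ± 0.0744 after shCr vesicles and 3.20 ± 0.0814 after CrOE vesicles. The ratio of Mmp2 to Timp2 had another order, with 0.986 ± 0.00922, 2.28 ± 0.0430, 1.75 ± 0.0661 and 1.53 ± 0.0451 in the same groups.

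Among the ADAMs, the abundant sheddases were Adam9, Adam10, Adam15 and Adam17 by level per kilobase in every group. Adam9, a widely expressed sheddase and the ADAM with the highest level per kilobase in every group (114.9 CPM per kb in untreated cells), was at 482, 444 and 468 CPM in the untreated group and 369, 369 and 374 after shCon vesicles. Adam9 was at 406, 359 and 352 CPM after shCr vesicles and 260.4, 279 and 258 after CrOE vesicles. It fell after each kind of vesicle (log2FC -0.32 ± 0.0604, adjusted p = 0.00104, log2FC -0.32 ± 0.0604, adjusted p = 0.00112 and log2FC -0.81 ± 0.0608, adjusted p = 6.5e-08). Adam10, the main constitutive sheddase of Notch receptors and cadherins, was at 233, 199 and 222 CPM in the untreated group and 208, 204 and 195 after shCon vesicles. Adam10 was at 248, 203 and 194 CPM after shCr vesicles and 163, 173 and 157 after CrOE vesicles. Only the CrOE contrast of the 3 passed (log2FC -0.40 ± 0.0865, adjusted p = 9.2e-04), and the other groups overlapped.

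Adam17 (TACE, the enzyme that releases TNF and many EGF receptor ligands) rose after shCon and shCr vesicles, where Adam9 fell, and fell after CrOE vesicles. It was at 124, 119.8 and 118 CPM in the untreated group and 164, 165 and 167 after shCon vesicles. Adam17 was at 211, 193 and 186 CPM after shCr vesicles and 94.4, 107 and 99.9 after CrOE vesicles, with no overlap between groups. The order was shCr, shCon, untreated and CrOE, with log2FC 0.46 ± 0.0592, adjusted p = 6.3e-05 for shCon, log2FC 0.70 ± 0.0592, adjusted p = 1.4e-06 for shCr and log2FC -0.26 ± 0.0593, adjusted p = 0.00134 for CrOE vesicles against untreated cells. Adam15, which carries an integrin-binding motif, was at 138, 154 and 144 CPM in the untreated group and 138, 140.2 and 143 after shCon vesicles. Adam15 was at 120.03, 136 and 142 CPM after shCr vesicles and 100.2, 105 and 104 after CrOE vesicles, and differed from untreated cells after CrOE vesicles alone among the 3 contrasts (log2FC -0.49 ± 0.0636, adjusted p = 1.2e-05).

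**Figure D2:**
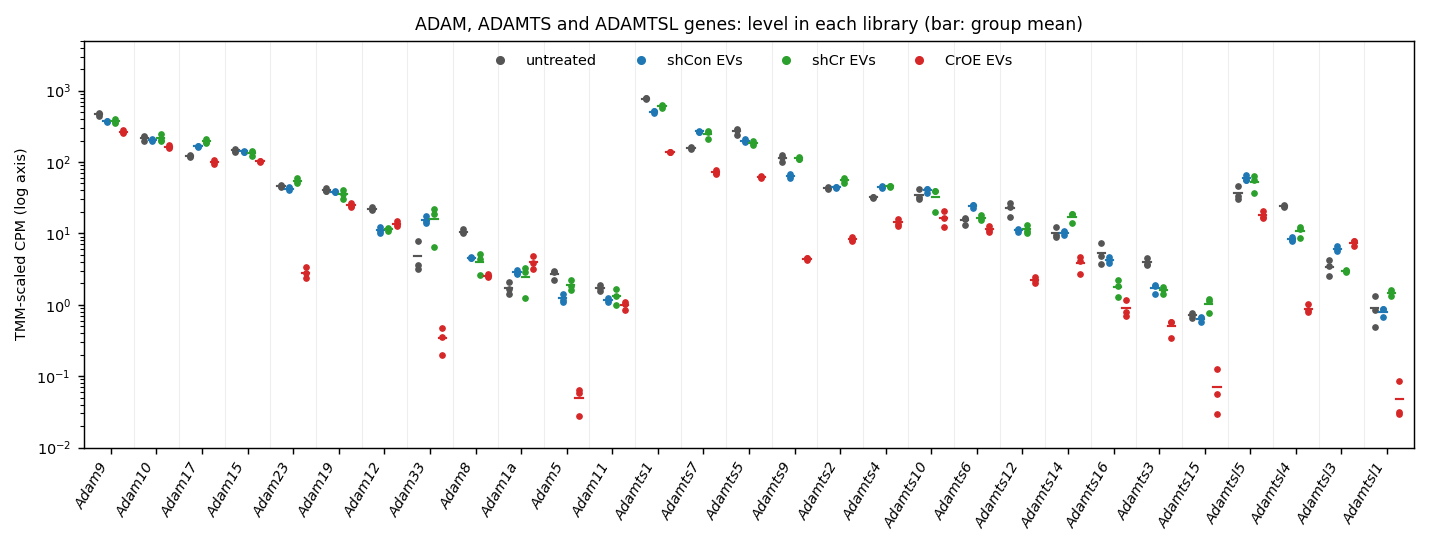
TMM-scaled CPM (vertical log10 axis) of the ADAM, ADAMTS and ADAMTSL members in each of the 12 libraries, by group; points are libraries. CrOE points lie lowest for most members, with Adam1a and Adamtsl3 above their untreated points, and the shCr point far below its replicates in Adam33 is replicate 1.

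Adam19 and Adam12 are meltrins, ADAMs known from muscle, heart and mesenchyme. Adam19 was at 40.9 ± 2.49 CPM in untreated cells, 38.1 ± 0.606 after shCon vesicles, 35.3 ± 5.04 after shCr vesicles and 24.9 ± 1.58 after CrOE vesicles. It was called after CrOE vesicles (log2FC -0.72 ± 0.0919, adjusted p = 1.2e-05) and, without shCr replicate 2 (0.0144) or with the replicate block (0.0379), after shCr vesicles (adjusted p = 0.0891 otherwise). Adam12 was at 21.3, 23.5 and 21.96 CPM in the untreated group and 12.4, 10.8 and 10.2 after shCon vesicles. Adam12 was at 11.6, 11.9 and 10.7 CPM after shCr vesicles and 12.8, 14.9 and 13.3 after CrOE vesicles. Unlike most members it was lowest after shCon and shCr vesicles. Its falls were -0.999 ± 0.0892 (adjusted p = 2.7e-06) and -0.96 ± 0.0884 (adjusted p = 3.0e-06) against -0.70 ± 0.0871 (adjusted p = 9.0e-06) after CrOE vesicles. The CrOE level of Adam12 was higher than the shCon level (log2FC 0.30 ± 0.0898, adjusted p = 0.00902). Adam8, a sheddase best known from leukocytes, stood at 10.4, 11.4 and 9.97 CPM in the untreated group and 4.54, 4.68 and 4.54 after shCon vesicles. Adam8 was at 2.61, 5.09 and 4.32 CPM after shCr vesicles and 2.47, 2.502 and 2.67 after CrOE vesicles. All its vesicle libraries lay below all untreated ones (log2FC -1.21 ± 0.17, adjusted p = 1.3e-04, log2FC -1.39 ± 0.17, adjusted p = 3.6e-05 and log2FC -2.05 ± 0.18, adjusted p = 2.7e-07). Without shCr replicate 1 the shCr log2FC of Adam8 was -1.18 (adjusted p = 1.6e-06).

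Adam23 and Adam11 belong to the ADAMs without protease activity, which bind LGI proteins in the nervous system. Adam23 was at 47.1, 45.5 and 44.1 CPM in the untreated group and 43.9, 42.6 and 40.3 after shCon vesicles. Adam23 was at 59.8, 53.4 and 50.4 CPM after shCr vesicles and 2.38, 3.35 and 2.75 after CrOE vesicles. Its fall after CrOE vesicles, 16.1-fold (log2FC -4.01 ± 0.11, adjusted p = 2.9e-12), stood beside falls of at most -0.81 (Adam9) among Adam9, Adam10, Adam15 and Adam17. The rise after shCr vesicles (log2FC 0.26 ± 0.0834, adjusted p = 0.0278) was lost without any one of the untreated libraries (0.0538 to 0.106) or without shCr replicate 2 (0.0514). Adam11, near the level limit, was at 1.72 ± 0.188 CPM in untreated cells, 1.18 ± 0.0827 after shCon vesicles, 1.31 ± 0.328 after shCr vesicles and 0.985 ± 0.128 after CrOE vesicles. It was called after CrOE vesicles (log2FC -0.80, adjusted p = 0.003502). Its shCon contrast (0.0548) passed without shCr replicate 1 (0.0303) or replicate 3 (0.0417) and in 3 other alternatives (0.0346 to 0.0461).

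Adam33, an ADAM of mesenchymal cells known from the genetics of asthma, had the largest log2 rise of the ADAMs after shCon vesicles and differed widely between replicates. It was at 3.15, 7.699 and 3.61 CPM in the untreated group and 13.8, 14.97 and 17.8 after shCon vesicles. Adam33 was at 6.42, 18.8 and 21.8 CPM after shCr vesicles and 0.476, 0.349 and 0.197 after CrOE vesicles. The shCon libraries lay above and the CrOE libraries below all untreated ones (log2FC 1.69 ± 0.40, adjusted p = 0.00534 and log2FC -3.82 ± 0.64, adjusted p = 1.3e-04). In Adam33, shCr replicate 1 lay below untreated replicate 2 (shCr against untreated log2FC 1.71 ± 0.40, adjusted p = 0.00455). Without that shCr library the log2FC of Adam33 was 2.08 (adjusted p = 2.9e-05). Adam5, a gene known mainly from the reproductive tract, stood at 2.89, 2.21 and 3.02 CPM in the untreated group, 1.11, 1.43 and 1.15 after shCon vesicles and 2.26, 1.86 and 1.62 after shCr vesicles. The CrOE libraries held 5 counts of Adam5 in all against 219 in the untreated ones, a ratio of 55.1 with an exact 95% interval of 23.3 to 171 (adjusted p = 3.5e-09). It was also lower after shCon vesicles (log2FC -1.13 ± 0.20, adjusted p = 6.6e-04). The shCr call of Adam5 (log2FC -0.51, adjusted p = 0.0491) was lost in 14 of 18 alternatives, 9 of which leave out a single library (0.0543 to 0.169).

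Adam1a, a fertilin subunit of sperm, was the 1 ADAM above untreated cells after CrOE vesicles, at 1.43, 1.68 and 2.06 CPM in the untreated group and 3.81, 3.17 and 4.89 after CrOE vesicles (log2FC 1.199 ± 0.29, adjusted p = 0.00217). It was at 3.08, 2.69 and 2.77 CPM after shCon vesicles and 1.23, 2.85 and 3.23 after shCr vesicles, where neither contrast passed (adjusted p = 0.0751 and 0.198) with all libraries. The shCon contrast of Adam1a passed without shCr replicate 1 (0.00796), with the replicate block (0.0463) and with those 2 groups alone in the fit (0.00902), and the shCr contrast passed without shCr replicate 1 (0.00573). Of its 31-base stretches 78.4% are shared with other annotated genes, among them Gm42878, Mapkapk5 and Adam1b, so its counts are uncertain.

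All 13 reported ADAMTS genes were called lower after CrOE vesicles than in untreated cells, where 37% of all genes tested were called lower. Their median log2 fold change was -2.375, beside 0.008 over all genes. The proteoglycan-cleaving enzymes of the versican and aggrecan group come first. Adamts1, which cuts versican and is also known to bind VEGF, made up 61% of the ADAMTS level per kilobase in untreated cells. It was at 755, 777 and 782 CPM in the untreated group and 484, 520.3 and 522 after shCon vesicles. Adamts1 was at 575, 615 and 624 CPM after shCr vesicles and 137, 140.1 and 138 after CrOE vesicles. The groups did not overlap, and Adamts1 fell after each kind of vesicle (log2FC -0.60 ± 0.0493, adjusted p = 1.2e-06, log2FC -0.35 ± 0.0492, adjusted p = 1.1e-04 and log2FC -2.48 ± 0.05202, adjusted p = 4.9e-13). Adamts5 (aggrecanase 2), the neighbour of Adamts1 on chromosome 16, was at 288, 242 and 283 CPM in the untreated group and 211, 197 and 189.9 after shCon vesicles. Adamts5 was at 194, 187 and 173 CPM after shCr vesicles and 60.4, 64.5 and 60.96 after CrOE vesicles. It fell in the same 3 contrasts (log2FC -0.45 ± 0.0715, adjusted p = 3.5e-04, log2FC -0.55 ± 0.0716, adjusted p = 5.6e-05 and log2FC -2.13 ± 0.0749, adjusted p = 3.5e-11).

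Adamts4 (aggrecanase 1) moved opposite to Adamts5 after the control and knockdown vesicles. It was at 31.9 ± 0.194 CPM in the untreated group and 44.3 ± 1.31 after shCon vesicles (log2FC 0.47 ± 0.0711, adjusted p = 2.2e-04). Adamts4 was at 45.5 ± 1.34 CPM after shCr vesicles (log2FC 0.51 ± 0.0709, adjusted p = 1.0e-04) and 14.2 ± 1.697 after CrOE vesicles (log2FC -1.17 ± 0.0744, adjusted p = 1.2e-08). Adamts9, a versican-cleaving enzyme conserved across animals, differed between shCon and shCr vesicles. It was at 117, 99.9 and 127 CPM in the untreated group and 63.9, 68.8 and 59.9 after shCon vesicles. Adamts9 was at 119, 111 and 109.7 CPM after shCr vesicles and 4.19, 4.48 and 4.58 after CrOE vesicles. The shCr libraries lay within the untreated range (log2FC -0.01701, adjusted p = 0.8897), the shCon libraries below it (log2FC -0.84 ± 0.0814, adjusted p = 5.6e-06) and the CrOE libraries 25.9-fold below it (log2FC -4.696 ± 0.10, adjusted p = 5.5e-13). Adamts15, just above the level limit, was at 0.719 ± 0.05696 CPM in untreated cells, 0.631 ± 0.0611 after shCon vesicles and 1.02 ± 0.219 after shCr vesicles. The CrOE libraries held 7 counts of Adamts15 against 58 in the untreated ones (ratio 10.4, exact 95% interval 4.75 to 27.1).

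The procollagen N-propeptidases, which trim the amino end of fibrillar procollagens, are Adamts2, Adamts3 and Adamts14. Adamts2 was at 41.9, 44.6 and 43.2 CPM in the untreated group and 45.2, 43.7 and 44.1 after shCon vesicles. Adamts2 was at 50.9, 60.4 and 55.9 CPM after shCr vesicles and 8.02, 9.02 and 7.92 after CrOE vesicles. The shCr libraries lay above and the CrOE libraries below all others (log2FC 0.37 ± 0.0677, adjusted p = 8.9e-04 and log2FC -2.38 ± 0.0756, adjusted p = 1.4e-11), and shCon vesicles gave no call (adjusted p = 0.704). Adamts14 was at 9.37, 12.1 and 8.79 CPM in the untreated group and 10.4, 10.7 and 9.47 after shCon vesicles. Adamts14 was at 13.9, 18.9 and 18.4 CPM after shCr vesicles and 2.73, 4.596 and 4.16 after CrOE vesicles, the same order of group means as Adamts2 (log2FC 0.76 ± 0.17, adjusted p = 0.00324 for shCr and log2FC -1.39 ± 0.19, adjusted p = 1.7e-05 for CrOE vesicles). Adamts3 fell after each kind of vesicle from 3.698, 3.58 and 4.49 CPM in untreated cells to 1.396, 1.89 and 1.84 after shCon vesicles, 1.66, 1.41 and 1.78 after shCr vesicles and 0.571, 0.582 and 0.337 after CrOE vesicles (log2FC -1.196 ± 0.19, adjusted p = 2.8e-04, log2FC -1.28 ± 0.19, adjusted p = 1.5e-04 and log2FC -2.98 ± 0.22, adjusted p = 4.4e-08).

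Adamts7 and Adamts12 both cleave COMP, a cartilage and tendon matrix protein, and they went opposite ways after shCon and shCr vesicles. Adamts7 was at 151, 162 and 156 CPM in the untreated group and 262, 266 and 275 after shCon vesicles. Adamts7 was at 209, 276 and 263 CPM after shCr vesicles and 71.01, 67.2 and 77.9 after CrOE vesicles (log2FC 0.78 ± 0.08998, adjusted p = 2.5e-05, log2FC 0.68 ± 0.0898, adjusted p = 7.2e-05 and log2FC -1.12 ± 0.0914, adjusted p = 1.5e-07). Adamts12 was at 22.3 ± 5.08 CPM in the untreated group and fell to 11.1 ± 0.551, 11.4 ± 1.64 and 2.23 ± 0.225 after shCon, shCr and CrOE vesicles (log2FC -1.01 ± 0.15, adjusted p = 2.0e-04, log2FC -0.98 ± 0.15, adjusted p = 2.3e-04 and log2FC -3.33 ± 0.18, adjusted p = 1.9e-09). Adamts6 and Adamts10 are related proteins that act on fibrillin microfibrils. Adamts6 was at 15.2 ± 1.71 CPM in the untreated group and rose to 24.2 ± 1.09 after shCon vesicles (log2FC 0.67 ± 0.10, adjusted p = 1.6e-04). Adamts6 was at 16.5 ± 1.31 CPM after shCr vesicles (adjusted p = 0.381) and 11.4 ± 1.1 after CrOE vesicles (log2FC -0.42 ± 0.10, adjusted p = 0.00198). Adamts10 was at 35.0 ± 6.23 CPM in untreated cells, 40.2 ± 2.69 after shCon vesicles, 32.4 ± 11.02 after shCr vesicles and 16.4 ± 4.14 after CrOE vesicles. It was called for CrOE among the 3 contrasts (log2FC -1.09 ± 0.24, adjusted p = 0.00114). Its shCr log2FC was -0.11 with all libraries (adjusted p = 0.754) and 0.14 without shCr replicate 1 (adjusted p = 0.497), short of the threshold both ways. Adamts16 was at 3.698, 7.32 and 4.78 CPM in the untreated group and 3.9, 4.18 and 4.61 after shCon vesicles. Adamts16 was at 1.304, 2.21 and 1.86 CPM after shCr vesicles and 1.17, 0.785 and 0.702 after CrOE vesicles. It fell after shCr (log2FC -1.55 ± 0.26, adjusted p = 4.4e-04) and CrOE vesicles (log2FC -2.57 ± 0.28, adjusted p = 2.6e-06), while the shCon libraries lay within the untreated range (adjusted p = 0.334).

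The ADAMTS-like proteins divided. Adamtsl5, which binds fibrillin and made up 74.1% of this family's level per kilobase in untreated cells, was at 30.6, 46.7 and 33.5 CPM in the untreated group and 56.4, 56.3 and 66.1 after shCon vesicles. Adamtsl5 was at 36.4, 55.7 and 63.1 CPM after shCr vesicles and 17.1, 16.7 and 20.7 after CrOE vesicles. It fell after CrOE vesicles (log2FC -1.02 ± 0.20, adjusted p = 4.1e-04). Its rise after shCon vesicles (log2FC 0.69 ± 0.19, adjusted p = 0.0122) was lost without untreated replicate 1 (0.0590) or 3 (0.0558) or shCon replicate 3 (0.0534), and its shCr contrast (0.05998) passed without untreated replicate 2 (0.0137) or shCr replicate 1 (0.00218), and also with DESeq2 (0.0346), with no low-count filter (0.0349) and with the replicate block (0.0301). Adamtsl4, a fibrillin-1 partner of the lens zonule, was at 24.1, 23.8 and 24.7 CPM in the untreated group and 8.05, 7.93 and 8.97 after shCon vesicles. Adamtsl4 was at 8.601, 11.5 and 12.4 CPM after shCr vesicles and 0.856, 0.785 and 1.01 after CrOE vesicles. The shCon and shCr libraries overlapped and lay between the other groups, with log2FC -1.54 ± 0.12, adjusted p = 6.1e-07, log2FC -1.15 ± 0.11, adjusted p = 5.5e-06 and log2FC -4.76 ± 0.15, adjusted p = 1.4e-11 against untreated cells, the last a 27.2-fold lower level.

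Adamtsl3 was higher after CrOE vesicles, at 2.53, 3.51 and 4.19 CPM in the untreated group and 6.12, 5.61 and 6.63 after shCon vesicles. Adamtsl3 was at 2.86, 2.95 and 3.07 CPM after shCr vesicles and 7.87, 7.74 and 6.57 after CrOE vesicles. Like Mmp12, it was higher after shCon (log2FC 0.84 ± 0.16, adjusted p = 9.7e-04) and CrOE vesicles (log2FC 1.12 ± 0.15, adjusted p = 2.1e-05), and its shCr libraries lay within the untreated range (adjusted p = 0.365). Adamtsl1 stood at 1.32, 0.495 and 0.846 CPM in the untreated group, 0.859, 0.863 and 0.685 after shCon vesicles and 1.59, 1.35 and 1.51 after shCr vesicles. Its CrOE libraries held 5 counts in all against 72 in the untreated ones (ratio 18.1, exact 95% interval 7.41 to 57.5, adjusted p = 6.1e-06). The shCr libraries of Adamtsl1 lay above the untreated ones without a call (adjusted p = 0.0653), and it passed without untreated replicate 1 (0.0117).

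The knockdown and control vesicles differ in the CRIPTO state of the donor cells, and the question for this contrast is which members separated them. Of the 54 members tested, 8 were higher and 10 lower after shCr than after shCon vesicles, where 8.73% of all genes tested were called (5.22% higher, 3.51% lower). Differences were small: 3 members were called with at least a 2-fold change, all lower after shCr vesicles, beside 0.756% of all genes. They were Adamts16, Adamtsl3 and Adamtsl2. The last stayed under 1 CPM in each group (0.528 ± 0.113 CPM after shCon and 0.0604 ± 0.0644 after shCr vesicles). The largest fall among the 47 was that of Adamts16 (log2FC -1.23 ± 0.26, adjusted p = 0.0111), a call lost without shCon replicate 3 (0.0502), and Adamtsl3 came next (log2FC -1.04 ± 0.15, adjusted p = 0.00119). Mmp12, Mmp13, Timp3 (log2FC -0.70 ± 0.11, adjusted p = 0.00132), Adamts6 (log2FC -0.55 ± 0.10, adjusted p = 0.00337) and Timp1 (log2FC -0.31 ± 0.0529, adjusted p = 0.0028) were also lower after shCr vesicles. Adamts9 showed the largest rise (log2FC 0.82 ± 0.0812, adjusted p = 6.8e-05), followed by Adamts14 (log2FC 0.75 ± 0.17, adjusted p = 0.0156) and Mmp15 (log2FC 0.60 ± 0.11, adjusted p = 0.00487).

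Several of the smaller differences in this contrast depended on single libraries. Mmp2 (log2FC -0.20, adjusted p = 0.0308) lost its call without any one of the shCon libraries (0.0755 to 0.118) or shCr replicate 3 (0.0694). Timp2 (0.18, 0.0244) lost it without any one of the shCon libraries (0.0885 to 0.106), untreated replicate 1 (0.0505) or shCr replicate 2 (0.0646). Mmp11 (-0.34, 0.02395) lost it without any one of the shCon libraries (0.0724 to 0.0860), as did Adam17 (0.25, 0.0205) with adjusted p from 0.0693 to 0.0851. Adam23 (0.37, 0.01702) lost it without shCon replicate 2 (0.0672) or 3 (0.0882), and Adamts1 (0.25, 0.00752) without shCon replicate 1 (0.0533). Adamts14 lost it without any one of the shCon libraries (0.0536 to 0.0808) or shCr replicate 2 (0.0565), whereas Adamts2 (0.33, 0.00914) kept it without each library in turn and lost it with those 2 groups alone in the fit (0.0563). The count of 18 fell to 12 without shCon replicate 1 or 2 and to 11 without shCon replicate 3, and was 19 without shCr replicate 1.

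Vesicles from CRIPTO-overexpressing donors were also set against the other vesicles. Compared with shCon vesicles, 2 members were higher (Mmp12 and Adam12) and 45 lower after CrOE vesicles, where 72.6% of all genes were called (36.5% higher, 36.1% lower). Compared with shCr vesicles, 6 were higher and 42 lower, with 73.9% of all genes called (36.9% higher, 37% lower). Of these 6, Adam1a (adjusted p = 0.0378) lost its call without shCr replicate 1 (0.0826), CrOE replicate 1 (0.0629) or CrOE replicate 3 (0.153). Mmp13 (0.0155) lost it without shCr replicate 2 (0.0599) or 3 (0.0711) or CrOE replicate 2 (0.0711). Adam12 (0.0162) lost it without shCr replicate 3 (0.0662) or CrOE replicate 2 (0.0767). At least 2-fold calls numbered 36 and 34 in these contrasts, beside 27.2% and 29.6% of all genes. Mmp12 was higher in both contrasts (log2FC 1.72 ± 0.15, adjusted p = 3.1e-07 and log2FC 2.59 ± 0.16, adjusted p = 8.0e-09), and Adamtsl3 was higher than after shCr vesicles (log2FC 1.32 ± 0.15, adjusted p = 4.1e-06). The deepest falls against shCon vesicles were those of Adam33 (log2FC -5.51 ± 0.58, adjusted p = 1.7e-06), Mmp8 (adjusted p = 6.0e-07) and Adam5 (adjusted p = 9.6e-08). Mmp8 held 4 counts in the CrOE libraries against 155 in the shCon ones, and Adam5 5 against 106. Mmp2 and Timp2 also fell (log2FC -3.62 ± 0.0574, adjusted p = 9.2e-14 and log2FC -3.04 ± 0.0483, adjusted p = 9.2e-14). These contrasts share the CrOE libraries with the contrast against untreated cells.

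Genes that act with these proteases were counted from 6 lists, whose counts stand beside the shares of all genes tested that were called (shCon 38.1%, shCr 37.3% and CrOE 73.7%). Of the activators, inhibitors and clearance receptors of MMPs, 16 of 23 were tested. In the CrOE group 3 were higher and 10 lower than in untreated cells (median log2 fold change -0.588 against 0.008 over all genes). The plasminogen activators were the members with the deepest falls: Plau (urokinase) went from 15.6 ± 2.21 to 1.19 ± 0.327 CPM (log2FC -3.69 ± 0.20, adjusted p = 1.9e-09). Plat (tissue-type activator) went from 134 ± 8.53 to 13.8 ± 1.18 CPM (log2FC -3.28 ± 0.0779, adjusted p = 1.2e-12). The clearance receptor Lrp1 was at 1256 ± 206 CPM in untreated cells, 1759 ± 141 after shCon vesicles, 1580.1 ± 23.6 after shCr vesicles and 417 ± 62.3 after CrOE vesicles. Cathepsins B and L fell by 0.82 (Ctsb) and 0.49 (Ctsl) on the log2 scale after CrOE vesicles. After shCon vesicles 3 of this list were higher and 7 lower, and after shCr vesicles 4 and 5.

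Of the procollagen-processing partners and microfibril proteins, 11 of 15 were tested, and 1 was higher and 10 lower after CrOE vesicles (median -1.181). Pcolce, the enhancer of procollagen C-proteinase, was at 989 ± 2.79 CPM in untreated cells, 940.1 ± 19.9 after shCon vesicles, 998 ± 34.9 after shCr vesicles and 123 ± 4.84 after CrOE vesicles (log2FC -3.004 ± 0.0511, adjusted p = 9.9e-14). The latent TGF-beta binding protein gene Ltbp2 stood at 412 ± 40.3, 252 ± 9.505, 136 ± 18.6 and 29.3 ± 2.02 CPM in the same order (log2FC -3.81 ± 0.11, adjusted p = 5.0e-12 for CrOE). After shCon vesicles 2 were higher and 3 lower, and after shCr vesicles 1 and 6. Of 11 ADAMTS proteoglycan substrates and matrix targets 8 were tested, with 7 called after CrOE vesicles and 4 after shCon vesicles, all lower (CrOE median -2.999), and 2 higher and 4 lower after shCr vesicles. The thrombospondin gene Thbs2 was at 2849 ± 81.9 CPM in the untreated group and 96.4 ± 8.47 after CrOE vesicles (log2FC -4.88 ± 0.0722, adjusted p = 4.1e-14). Bgn (biglycan) was at 3885 ± 119 and 1779.7 ± 123 CPM (log2FC -1.13 ± 0.0613, adjusted p = 2.4e-09). The shCr count of 6 was 3 without untreated replicate 3 or shCr replicate 2.

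Of the partners of ADAM10 and ADAM17, 13 of 14 were tested. After shCon vesicles 5 were called and all 5 were higher, a share near that of all genes. The shCr count was also 5, all higher, and after CrOE vesicles 2 were higher and 6 lower. The tetraspanin gene Tspan10, whose protein belongs to the group that escorts ADAM10, was at 0.1001 ± 0.0957 CPM in untreated cells, 1.95 ± 0.168 after shCon vesicles, 3.73 ± 0.241 after shCr vesicles and 0.0203 ± 0.0176 after CrOE vesicles. It rose after shCon and shCr vesicles (adjusted p = 6.2e-06 and 5.1e-07). Ncstn, the gamma-secretase subunit nicastrin, rose by 0.18 and 0.24 (adjusted p = 0.00776 and 9.3e-04). The shCon count of 5 was 2 without untreated replicate 1 and 3 without shCon replicate 2 or 3, and the shCr count of 5 was 9 without shCr replicate 1. Of 27 shed substrates 24 were tested, with 4 higher and 12 lower after shCon vesicles, 7 and 11 after shCr vesicles, and 2 and 18 after CrOE vesicles (median -1.035). Vcam1, an adhesion receptor, was at 543 ± 27.5 CPM in the untreated group and 89.8 ± 4.42 after CrOE vesicles (log2FC -2.597 ± 0.0738, adjusted p = 5.1e-12). The membrane chemokine gene Cx3cl1 was at 58.0 ± 4.09 and 7.602 ± 1.31 CPM (log2FC -2.93 ± 0.10, adjusted p = 3.0e-11).

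All 17 listed transcription factors of MMP genes were tested, with 3 higher and 9 lower after shCon vesicles, 3 and 9 after shCr vesicles, and 6 and 9 after CrOE vesicles (median -0.218). Of the 7 AP-1 genes 2 were higher (Fosl1 and Jund) and 4 lower (Fos, Fosb, Fosl2 and Junb) after CrOE vesicles, and Jun was not called (adjusted p = 0.299). Fosl1 was at 25.9 ± 5.83 CPM in the untreated group and 51.7 ± 2.64 after CrOE vesicles (log2FC 0.998 ± 0.15, adjusted p = 3.9e-05). Jund was at 133 ± 6.47 and 228 ± 10.6 CPM (log2FC 0.78 ± 0.0569, adjusted p = 4.6e-08). Fos was at 3.94 ± 0.0233 CPM in the untreated group and 0.751 ± 0.126 after CrOE vesicles (log2FC -2.39 ± 0.18, adjusted p = 6.2e-08). Fosb was at 5.05 ± 0.356 and 1.07 ± 0.193 CPM (log2FC -2.23 ± 0.19, adjusted p = 2.1e-07). Ets2 was higher after each kind of vesicle, at 168 ± 1.62 CPM in untreated cells, 241 ± 9.703 after shCon vesicles, 275 ± 21.4 after shCr vesicles and 428 ± 19.1 after CrOE vesicles (log2FC 1.35 ± 0.0616, adjusted p = 4.3e-10 for CrOE).

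The 7 rows that were tested but stayed under 1 CPM were Adam22, Adamtsl2, Mmp17, Mmp1b, Mmp24, Mmp25 and Timp4. Mmp24 and Timp4 were lower after CrOE vesicles, Mmp25 was higher after shCon vesicles, and Adamtsl2 was higher after shCon and CrOE vesicles. Adam22, Mmp17 and Mmp1b passed in none of the 3 contrasts against untreated cells. In Adamtsl2 (a microfibril-associated protein), levels were 0.0372 ± 0.0368 CPM in untreated cells, 0.528 ± 0.113 after shCon vesicles, 0.0604 ± 0.0644 after shCr vesicles and 0.397 ± 0.159 after CrOE vesicles. The 30 rows not tested included Adamts13, Adamts8, Adam28, Mmp7 and Mmp20, and 13 of these 30, among them Adam2 and Mmp20, held no count in any library.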

How the data were processed

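Bulk poly(A) RNA of 12 libraries of 3T3 cells was analysed. The table deposited by the authors holds unscaled estimated counts, 1 row for each symbol; 39.8% of the values were not whole. The submitters' processing notes name featureCounts and the build mm39; the aligner, the annotation and the use of strand are not given in the sources used here. The design had assumed raw counts; the values were rounded and the same test was kept. The 27 rows whose symbol had become a date, at most 0.259% of a library's counts, entered the fit and are not named.

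Genes were filtered with filterByExpr (14279 tested) and scaled by TMM. All 12 libraries were fitted with 4 group means (8 residual degrees of freedom) in edgeR 4.0.16 (R 4.3.3), with the quasi-likelihood F-test and Benjamini-Hochberg adjustment over all genes; the biological coefficient of variation was 8.90%. Standard errors came from the F statistic. The test was tried on simulated data. Replicates of a group differed by more than sampling noise (chi-square per degree of freedom from 2.72 to 63.4), so none was merged. Exact intervals for ratios of counts cover counting error only.

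The members and the gene lists were chosen with earlier results of these data known. Every member with a mean of 1 CPM in any group is named. Values in every library were given for the 5 members of a family with the highest mean CPM and, in each of the 6 contrasts, the 3 called members that rose most and the 3 that fell most; of a list, the 3 genes with the highest mean CPM and the 2 with the largest change after CrOE EVs could be named. Transcript lengths, shared 31-base stretches and overlapping exons came from GENCODE M21 (GRCm38), and start regions from RefSeq (GRCm38.p6); no coordinates were converted. Alternatives were median-of-ratios scaling, DESeq2 1.42.0, other count filters, a replicate block, each library left out, 2-group fits, a fold threshold of 2 and, added after the data were seen, a fit without the CrOE libraries. Protein sequences were not analysed here.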

Additional observations from a re-analysis of the deposited data

How the results depend on the processing

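No called fold change of a member turned direction in the alternatives run. Among fold changes with no call, 41 alternative values in 20 members had the other sign (smallest adjusted p of either value 0.334). Of the 5181 alternative values of the 47 members, 5060 kept their side of the threshold, 74 lost and 47 gained a call. Requiring at least a 2-fold change left 14 members called for shCon against untreated, 11 for shCr against untreated and 3 for shCr against shCon. With each library left out in turn, the counts of called members ran from 29 to 35 (shCon against untreated), 28 to 34 (shCr against untreated), 49 to 50 (CrOE against untreated), 11 to 20 (shCr against shCon), 45 to 48 (CrOE against shCon) and 46 to 48 (CrOE against shCr). The 11 came without shCon replicate 3. Where an arm was left with 2 libraries, the spread was pooled over the groups. With the replicate block the counts were 32, 32, 49, 19, 47 and 48 in the same order. The replicate numbers share no stated batch. Same-numbered libraries correlated between -0.204 and 0.315 in their deviations (4 of 18 pairs above 0.1). Of 12 libraries, 5 correlated best with their own number. These values do not show that the numbers pair the samples, and they cannot exclude a partly shared batch. Plain library totals in place of TMM left 47 members at 1 CPM or more in a group, and a mean over all 12 libraries left 45. Without the 3 CrOE libraries shCr and shCon vesicles differed in 19 members. Depth limits the members with under 14 counts in the CrOE group (Adam5, Adamts15, Adamtsl1, Mmp27 and Mmp8), whose falls are known only within their counting intervals.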
